A study of Mus musculus with 2 samples.

Results

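The 6 genes Mir99a, Mir99b, Mir100, Mir125a, Mir125b-1 and Mir125b-2 were described, out of 2202 annotated mouse miRNA genes. They were taken by name, as the partners of let-7 in 3 paralogous clusters: each cluster holds a gene of the mir-99 family (Mir99a, Mir99b or Mir100), a let-7 gene and a gene of the mir-125 family. All 6 were found in both tables, and all 6 had at least 10 counts in each library, the limit for calling a gene detected, which 384 genes met. The samples were 2 libraries of microRNA sequencing from male B6CASTF1/J mice, an F1 hybrid strain, aged 18 to 20 months. The labels name the tissue as layer of hippocampus. No treatment or altered allele is given in the labels, and both libraries belong to 1 group. The labels give them the biological replicate numbers 1 and 2 and different tissue entries but the same donor entry, so the spread between them may be technical. With no second group, the data give levels, ratios between genes and the difference between the libraries.

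A microRNA is cut from a hairpin in a longer transcript, and it pairs with messenger RNAs mainly through its seed, bases 2 to 8. In many animals a gene of the mir-99 family, a let-7 gene and a mir-125 gene lie next to each other and can be made from 1 primary transcript, and vertebrates carry several copies of this arrangement. The mir-125 genes are relatives of worm lin-4, which with let-7 times developmental transitions, while mir-99 family genes are best known for targeting components of mTOR and insulin-like growth factor signalling. In brain, let-7 and mir-125 are known to accumulate as neural cells mature.

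The mature sequences that define the families are shown here, from RefSeq on GRCm38.p6, with the seed in capitals. They come from the 5′ arm of each hairpin, and all 6 members were matched.
miR-99a-5p: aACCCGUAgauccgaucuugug
miR-100-5p: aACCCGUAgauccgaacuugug
miR-99b-5p: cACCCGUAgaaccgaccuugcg
miR-125a-5p: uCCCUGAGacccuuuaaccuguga
miR-125b-5p, from both Mir125b-1 and Mir125b-2: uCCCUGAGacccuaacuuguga
The members thus hold 2 seeds, 1 for each family. Counted from 1 at the 5′ end, miR-99a-5p and miR-100-5p differ at 1 position, U16A. Between miR-99a-5p and miR-99b-5p there are 4 differences, A1C, U11A, U16C and U21C, all outside the seed. The miR-125a-5p and miR-125b-5p sequences are the same over the first 13 bases and then differ in length, at 24 and 22 bases.

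Both Mir125b genes encode the same 5′ arm product, and their 3′ arms, shown because they set the genes apart, differ.
miR-125b-1-3p: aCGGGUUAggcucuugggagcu
miR-125b-2-3p: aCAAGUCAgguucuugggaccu
The 2 hairpins share a run of 24 bases, longer than the mature 5′ product. No other member shares more than 16 bases with any of the 2202 annotated hairpins: 16 for Mir99a and Mir100 with each other, 14 for Mir125a with each Mir125b hairpin, and 11 for Mir99b with Mir100. Each table holds reads that map to several places on a summary line of their own, apart from the genes. Reads that mapped to several places made up 51.5% of all reads in replicate 1 and 46.7% in replicate 2. A read of the shared 5′ product alone could therefore enter neither Mir125b gene, and the counts of those genes may lie below what the tissue held by an unknown amount.

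In mm10, the chromosome 16 cluster holds Mir99a (ENSMUSG00000065530.1, 77598936 to 77599000), Mirlet7c-1 and Mir125b-2 (ENSMUSG00000065472.1, 77646273 to 77646343) in introns of the non-coding gene Mir99ahg. Mir125b-2 also overlaps an exon of C130023A14Rik. The chromosome 9 cluster holds Mir100 (ENSMUSG00000093011.1, 41531425 to 41531504), Mirlet7a-2 and Mir125b-1 (ENSMUSG00000093354.1, 41581926 to 41582002) in introns of the non-coding genes 3110039I08Rik and Gm49317, and Mir125b-1 also lies in an exon of Gm28119. On the other strand, Mir100 overlaps an exon of the non-coding gene Gm48742, and Mir99a lies in an intron of Gm11146. The chromosome 17 cluster holds Mir99b (ENSMUSG00000065396.1, 17830188 to 17830257), Mirlet7e and Mir125a (ENSMUSG00000065479.2, 17830812 to 17830879) within Spaca6, a protein-coding gene of sperm. Mir99b overlaps introns of Spaca6, and Mir125a overlaps an exon of at least 1 of its transcripts. All 9 genes are on the plus strand, in the order mir-99 family, let-7, mir-125. The 2 outer genes start 47.3 kb apart on chromosome 16, 50.5 kb on chromosome 9 and 0.624 kb on chromosome 17.

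**Figure D1:**
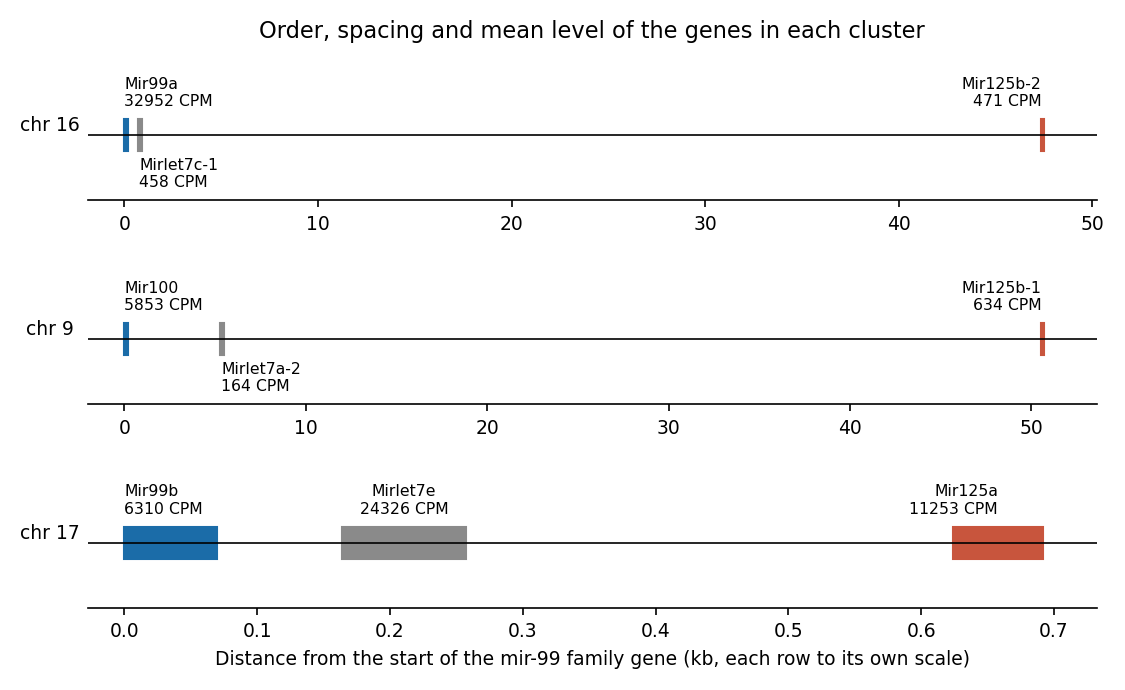
Order and spacing of the genes in each cluster, as distance in kb from the start of the mir-99 family gene, with each row on its own scale and narrow genes widened to be visible. Blue boxes are mir-99 family genes, grey boxes let-7 genes and red boxes mir-125 genes, labelled with the mean level of 2 libraries. The chromosome 17 cluster spans under 1 kb, and the mir-125 genes of the other clusters lie 47.3 and 50.5 kb from the first gene.

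Replicate 1 had 3758318 counts on the sense strand of miRNA genes and replicate 2 had 5598792, and levels are counts per 1000000 of these (CPM). A read covers a whole mature miRNA, so CPM was not divided by gene length. With a floor of 3 counts for a gene at 0, the lowest measurable levels were 0.798 and 0.536 CPM, and every member stood far above them. Marker genes of the labelled tissue were read: the 12 neuron markers summed to 50948 and 52470 CPM in replicates 1 and 2, with 8 detected and Mir124a-3 at 0. Most neuron markers are numbered copies, as the Mir125b genes are, so reads shared by copies may be missing from their counts. Shared runs were not searched for the markers, and neither the neuron sum nor the 0 gives a neuron content. Markers of other cells were also present: 25505 and 25271 CPM for astrocytes, 6092 and 9710 for oligodendrocytes, 22045 and 16510 for endothelial and mural cells, 3036 and 2780 for microglia and leukocytes, and 2061 and 3028 for choroid plexus and ependyma. The erythroid list had 52.4 and 76.98 CPM and the muscle and liver list 77.7 and 131.6 CPM. In tissue of mixed cells, fewer cells of a type and less RNA per cell cannot be told apart.

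The 6 genes held 6.21% of the counted reads in replicate 1 and 5.28% in replicate 2, or 57474 ± 6549 CPM (mean ± SD, n = 2 here and below). Most of that came from the mir-99 family genes, at 55075 and 35154 CPM in replicates 1 and 2. The mir-125 genes had 7029 and 17689 CPM. The mir-99 family sum was thus the larger in both libraries, and the 2 sums differed between libraries in opposite directions. Reads of miR-125b-5p that mapped to both Mir125b genes are not in the mir-125 sum. The sums are therefore of counted reads and do not rank the families in the tissue.

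Among mir-99 family genes, Mir99a had 148582 counts in replicate 1 and 147641 in replicate 2, which are 39534 and 26370 CPM. Its mean of 32952 ± 9308 CPM put it at rank 7 of all miRNA genes by counted reads. It alone held 63.7% of the counts of the 6 genes in replicate 1 (95% exact interval 63.5 to 63.9%) and 49.9% in replicate 2 (49.7 to 50.1%). Such intervals cover only counting error: PCR reads that carry no molecular identifier are not independent molecules. Mir99a had the most counts of the 6 genes in both libraries.

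Mir99b, of the chromosome 17 cluster, had 32216 and 22663 counts, or 8572 and 4048 CPM, with a mean of 6310 ± 3199 CPM at rank 32. Mir100, of the chromosome 9 cluster, had 26193 and 26517 counts, or 6969 and 4736 CPM, with a mean of 5853 ± 1579 CPM at rank 36. All 3 mir-99 family genes had the lower CPM in replicate 2. The order of Mir99b and Mir100 was not the same in the 2 libraries: Mir99b was the higher in replicate 1 and Mir100 in replicate 2.

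Among mir-125 genes, Mir125a had 22263 and 92845 counts, or 5924 and 16583 CPM. Its mean of 11253 ± 7537 CPM stood at rank 20, and its SD was the largest relative to the mean among the 6 genes. It held 84.3% of the mir-125 counts in replicate 1 and 93.7% in replicate 2. Mir125a was the only member with a clearly higher level in replicate 2, where it took 31.4% of the counts of the 6 genes against 9.54% in replicate 1.

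The Mir125b genes stood lower. Mir125a had 9.64 times the counts of Mir125b-1 in replicate 1 and 25.3 times in replicate 2. Against Mir125b-2 it had 12.05 and 36.7 times the counts. Mir125b-1 had 2308 and 3662 counts, or 614 and 654 CPM (634 ± 28.3 CPM, rank 111), and Mir125b-2 had 1847 and 2528 counts, or 491 and 452 CPM (471 ± 28.2 CPM, rank 123). Their sum was 1105.55 CPM in replicate 1 and 1105.6 CPM in replicate 2, near-equal in CPM. How many reads of the shared 5′ product were left out was not measured, so these ranks are of counts and give no tissue level of miR-125b.

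By mean level the order was Mir99a, Mir125a, Mir99b, Mir100, Mir125b-1 and Mir125b-2. The ranges of the 2 libraries overlapped between Mir125a and Mir99b and between Mir99b and Mir100, so those neighbours did not differ beyond their spread. They did not overlap between Mir99a and Mir125a, between Mir100 and Mir125b-1, or between Mir125b-1 and Mir125b-2. The order is of counted reads and was not tested.

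**Figure D2:**
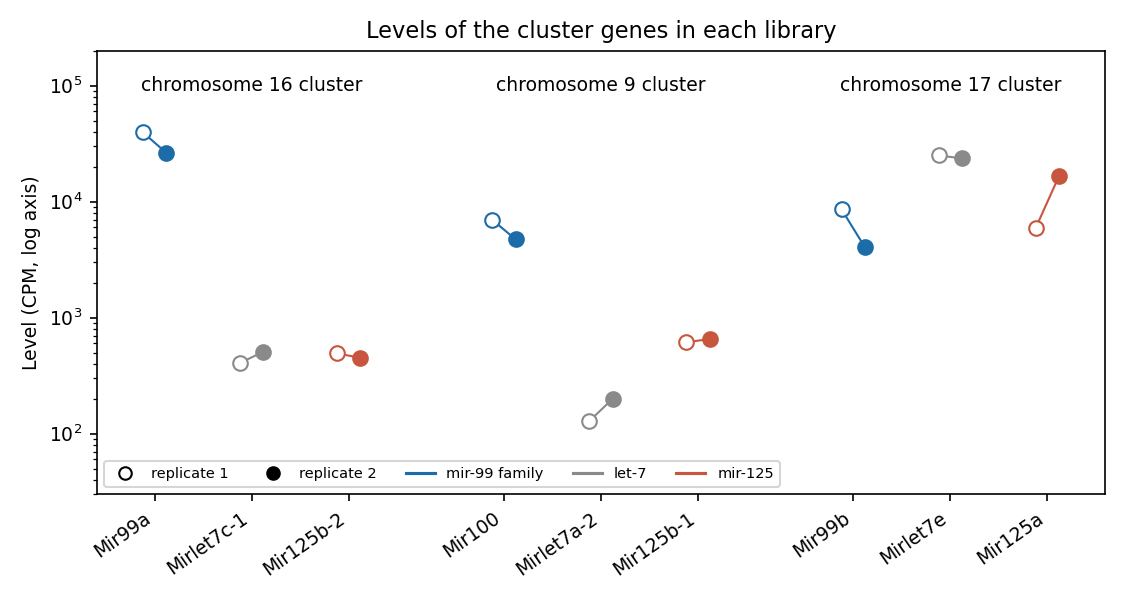
Level of each gene of the 3 clusters in CPM on a log axis, with replicate 1 as open and replicate 2 as filled circles joined by a line. The mir-99 family genes (blue) are lower in replicate 2, Mir125a (red, chromosome 17) goes from 5924 to 16583 CPM, and the Mir125b genes lie between 452 and 654 CPM.

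Other genes with the same seeds added little. No further mature sequence of the 1738 in the RefSeq table has the mir-99 family seed. The mir-125 seed occurs in 3 more, of which Mir351 had 66.8 and 61.98 CPM, and Mir6367 and Mir6394 had no count. These 3 were found by a search for the seed and not named in advance. The Mir351 product, shown for its shared seed, is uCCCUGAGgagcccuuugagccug, with the seed in capitals. The related genes Mir10a and Mir10b, which lie in Hox clusters, had 30.1 and 27.7 CPM and 22.4 and 9.82 CPM in replicates 1 and 2. Their product miR-10a-5p, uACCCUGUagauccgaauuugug, has another seed, in capitals. Genes of the mir-99 family thus stood far above these relatives in the hippocampal libraries.

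Each member was set beside the let-7 gene of its own cluster by the ratio of their counts within a library, which needs no scaling between libraries. The let-7 partners were Mirlet7c-1 with 407 and 509 CPM, Mirlet7a-2 with 129 and 199.7 CPM, and Mirlet7e with 25023 and 23628 CPM. Mirlet7c-1 shares 23 bases with Mirlet7c-2, and Mirlet7a-2 shares 23 with Mirlet7a-1, so reads of their mature 5′ products can also map to several places. For Mirlet7e the longest shared run was 17 bases.

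In the chromosome 16 cluster, Mir99a had 97.2 times the counts of Mirlet7c-1 in replicate 1 and 51.8 times in replicate 2. It had 80.4 and 58.4 times the counts of Mir125b-2. Mir125b-2 and Mirlet7c-1 were close, at ratios of 1.21 and 0.888. Mir99a made up 97.8% and 96.5% of the counts of its cluster. Both of its partners share at least 23 bases with another hairpin and Mir99a at most 16, so these ratios are not ratios of tissue levels.

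In the chromosome 9 cluster, Mir100 had 54.1 and 23.7 times the counts of Mirlet7a-2 and 11.3 and 7.24 times those of Mir125b-1. Mir125b-1 had 4.77 and 3.27 times the counts of Mirlet7a-2. Mir100 held 90.4% and 84.7% of the cluster's counts. As on chromosome 16, the mir-99 family gene had the most counts, and both of its partners share at least 23 bases with another hairpin.

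In the chromosome 17 cluster the shared runs are at most 17 bases in all 3 genes, so their counts can be set beside each other with less reserve. Only exact runs among annotated hairpins were searched, and not the rest of the genome. The let-7 gene led: Mirlet7e held 63.3% of the counts in replicate 1 and 53.4% in replicate 2, Mir99b 21.7% and 9.15%, and Mir125a 14.99% and 37.5%. Mir99b had 1.45 times the counts of Mir125a in replicate 1 (log2 ratio 0.53, 95% counting interval 0.51 to 0.56). In replicate 2 Mir125a had 4.10 times the counts of Mir99b (log2 ratio of Mir99b over Mir125a -2.03, interval -2.06 to -2.01). The genes of this pair, which start 0.624 kb apart, thus changed order between the libraries, and their ratio differed 5.93-fold.

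Across the 3 clusters, the log2 ratio of the mir-99 family gene to the let-7 gene was lower in replicate 2 each time, with differences (replicate 2 minus replicate 1) of -0.91 on chromosome 16, -1.19 on chromosome 9 and -0.9997 on chromosome 17. The log2 ratio of the mir-125 gene to the let-7 gene differed by -0.45 on chromosome 16, -0.54 on chromosome 9 and 1.57 on chromosome 17. The log2 ratio of the mir-99 family gene to the mir-125 gene was lower in replicate 2 in all 3, with differences of -0.46 on chromosome 16, -0.65 on chromosome 9 and -2.57 on chromosome 17. These differences are between 2 libraries, with no test.

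**Figure D3:**
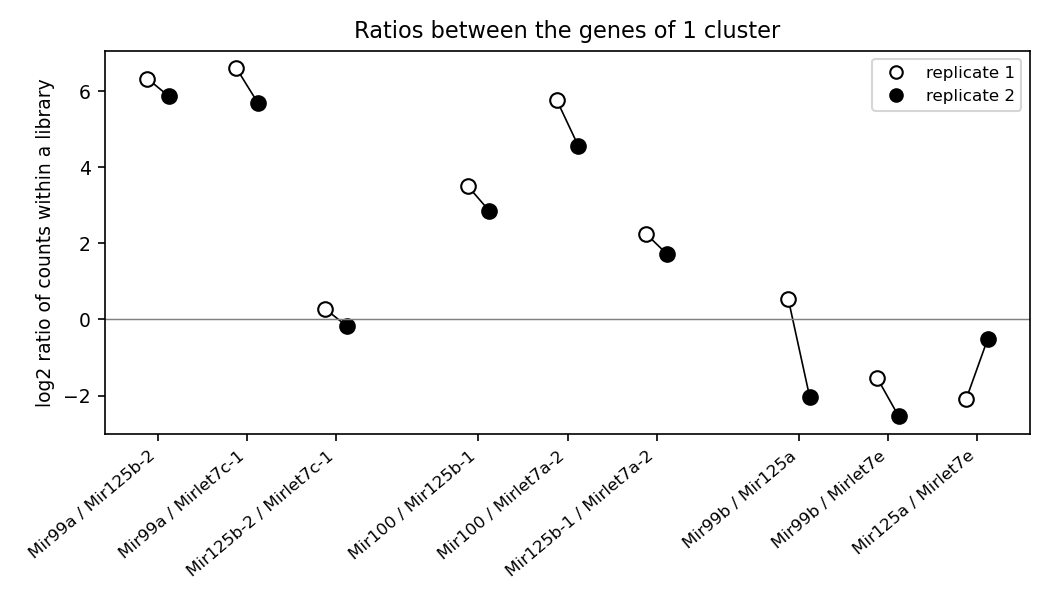
Log2 ratio of the counts of 2 genes of a cluster within each library, with replicate 1 open and replicate 2 filled, and a grey line at equal counts. The Mir99b to Mir125a ratio moves from 0.53 to -2.03 and crosses the line, as does Mir125b-2 to Mirlet7c-1, and the Mir125a to Mirlet7e ratio is the one that is higher in replicate 2.

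Paralogs on different chromosomes were compared in the same way. Mir99a had 5.67 times the counts of Mir100 in replicate 1 and 5.57 times in replicate 2, a log2 difference of -0.03 between the libraries, the smallest of the 6 paralog pairs compared. These genes differ at 1 base of the mature 5′ product. The ratio of Mir99a to Mir99b was 4.61 and 6.51, and that of Mir125b-1 to Mir125b-2 was 1.25 and 1.45. Mir125a had 9.64 and 25.3 times the counts of Mir125b-1.

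The difference between the libraries was then tested gene by gene with an exact two-sided binomial test on TMM-scaled library sizes, adjusted by Benjamini-Hochberg over all 384 detected genes. The test compares these 2 libraries and no conditions. It called 65.1% of all detected genes at an adjusted p of 0.05, 34.1% higher in replicate 1 and 31% higher in replicate 2, so the call of all 6 members has little weight of its own. With total counts in place of TMM the share was 70.6%, made up of 19.8% for genes higher in replicate 1 and 50.8% for those higher in replicate 2. The median absolute log2 difference on the TMM scale was 0.89 over the 6 members, and 0.44 over all detected genes. It was not computed with total counts.

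On the TMM scale, replicate 1 had the higher level of all 3 mir-99 family genes, each called by the test. The log2 difference, replicate 2 over replicate 1, was -1.40 for Mir99b (95% counting interval -1.42 to -1.37), -0.90 for Mir99a (-0.91 to -0.89) and -0.87 for Mir100 (-0.90 to -0.85). In absolute size Mir99b stood at rank 21 of the 384 genes, Mir99a at 69 and Mir100 at 77. The adjusted p of each was too small to be written apart from 0. The direction of these 3 was the same in CPM, at -1.08, -0.58 and -0.56.

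Mir125a was called higher in replicate 2, with a log2 difference of 1.17 (interval 1.15 to 1.19), rank 40 by absolute size and 1.49 in CPM. Its adjusted p was also too small to be written apart from 0. Mir99b and Mir125a were the 2 members past 2-fold on the TMM scale, in opposite directions, and 15.1% of all detected genes were past 2-fold.

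The Mir125b genes had the smallest differences in counted reads. Reads of the shared 5′ product that mapped to both genes are not in these counts, so the differences are not those of miR-125b-5p. Mir125b-2 was called higher in replicate 1, with a log2 difference of -0.44 (interval -0.53 to -0.35, exact binomial test, adjusted p = 2.7e-22). Mir125b-1 had -0.23 on the TMM scale (interval -0.30 to -0.15, adjusted p = 1.23e-08) and 0.09 in CPM (exact binomial test with total counts, adjusted p = 0.0269). The direction of Mir125b-1 therefore depends on the scaling, as library sizes scaled by TMM put replicate 2 lower by a factor of 1.25 than total counts do.

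Among the let-7 family, 10 of 12 genes were called, where 65.1% of all detected genes were. Replicate 1 was the higher for 8 of them and replicate 2 for the other 2, with a median log2 difference of -0.38 beside -0.02 over all detected genes. With total counts 11 were called, 7 with the higher level in replicate 1 and 4 in replicate 2, and the medians were -0.06 and 0.29. Of the cluster partners, Mirlet7e was called higher in replicate 1 (log2 difference -0.40), Mirlet7a-2 was called higher in replicate 2 (0.32, exact binomial test, adjusted p = 8.54e-05), and Mirlet7c-1 had 0.01 (adjusted p = 0.931). With total counts Mirlet7c-1 had 0.32 and was called higher in replicate 2 (exact binomial test, adjusted p = 2.51e-12). Each mir-99 family gene had a lower log2 difference than the let-7 gene beside it, which restates the ratios above because the scaling cancels. Of the relatives, Mir10b had -1.49 (exact binomial test, adjusted p = 3.02e-09). Mir10a had -0.44 (adjusted p = 0.0279), and with total counts it had -0.12 and was not called (adjusted p = 0.601).

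Markers of other cells differed between the libraries too, by calls on the TMM scale. Over all detected genes, 65.1% were called: 34.1% had more in replicate 1, and 31% had more in replicate 2. Higher in replicate 1 were 3 of 3 detected endothelial and mural markers and 3 of 4 for microglia and leukocytes. Higher in replicate 2 were 2 of 4 for choroid plexus and ependyma, 2 of 2 for muscle and liver and 1 of 2 erythroid markers. Other lists went both ways: of 8 neuron markers called, 6 were higher in replicate 1, of 4 astrocyte markers 3, and of 2 oligodendrocyte markers 1. Direction can depend on the scaling, as with total counts the 2 shares over all detected genes were 19.8% and 50.8%. In CPM, the sums of the lists with calls in 1 direction went the same way as the calls. The neuron sum did not follow most of its calls, at 50948 CPM in replicate 1 and 52470 in replicate 2. What part these markers had in the differences of the members was not tested.

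**Figure D4:**
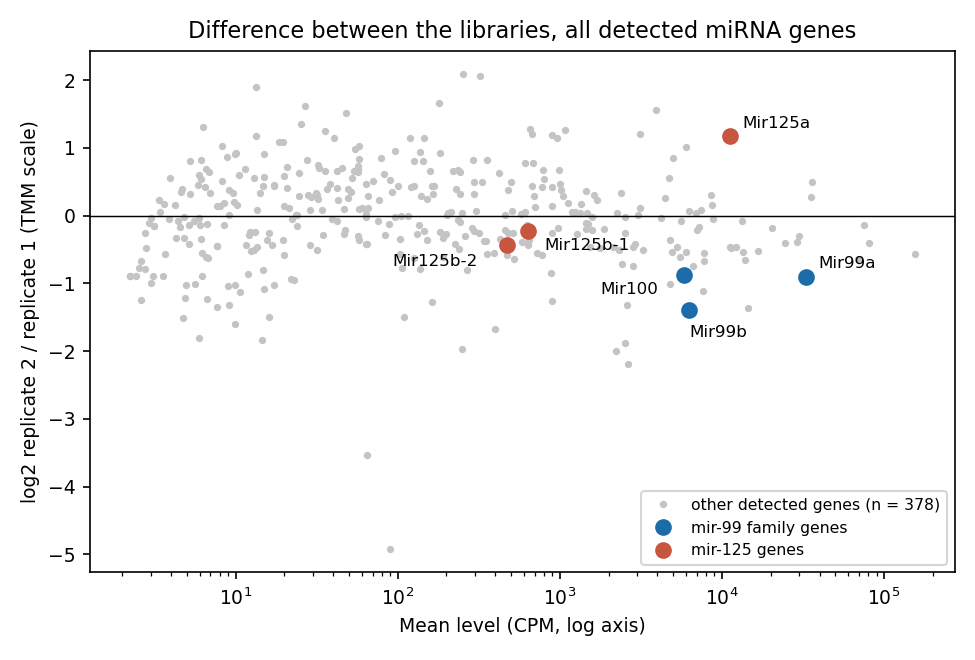
Log2 difference between the libraries on the TMM scale against mean level in CPM on a log axis, for the 384 detected genes, with the mir-99 family genes in blue and the mir-125 genes in red. The 3 mir-99 family genes lie between -0.87 and -1.40, Mir125a lies at 1.17, and the Mir125b genes lie nearer to 0.

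The detected genes nearest to each member were found by the distance in log2(CPM + 1) over the 2 libraries, 2 for each member. For Mir99a they were Mir23b (distance 0.43) and Mir127 (0.45), for Mir100 Mir361 (0.21) and Mir30a (0.25), and for Mir99b Mir100 (0.37) and Mir143 (0.49). Mir125a had the farthest neighbours, Mir330 (0.70) and Mir328 (0.77), both higher in CPM in replicate 2 than in replicate 1. For Mir125b-1 they were Mir1843a (0.02) and Mir1843b (0.07), and for Mir125b-2 Mir376c (0.10) and Mir384 (0.13). A member was the nearest gene of another member in 1 case, Mir100 for Mir99b. Likeness over 2 libraries reflects level more than pattern.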

How the data were processed

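MicroRNA libraries were made from total RNA, and the data were deposited as 1 table of raw read counts per library. Counts were not normalized by the authors. Build mm10 and GENCODE annotation M21 are per the labels and the deposited text; aligner and counter: not given in the sources used here. The stranded column with the larger total was used as sense, and the 4 summary lines stayed out of totals and tests. Symbols and coordinates came from GENCODE M21, and mature sequences from RefSeq. TMM scaling used edgeR 4.0.16, alternative size factors DESeq2 1.42.0, and exact binomial tests with Benjamini-Hochberg adjustment SciPy 1.17.1. Ratios used a pseudocount of 1, and intervals are exact 95% binomial intervals. Over detected genes, the edgeR common dispersion gave a coefficient of variation of 34.4% between the libraries. The binomial test was tested on simulated data with counting error only.

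The members and lists were chosen with earlier results of these data known. Named genes are the 6 members, the let-7 gene of each cluster, Mir10a and Mir10b, overlapping genes on the other strand, and the 2 nearest genes of each member. Host genes on the same strand, genes sharing a seed or a hairpin run with a cluster gene, and the marker at 0 are named outside that rule, after their values or sequences were seen. Alternatives were other count columns, denominators, scalings, count minimums, pseudocounts, a chi-square test and each replicate left out.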

Additional observations from a re-analysis of the deposited data

How the results depend on the processing

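All 6 members were called under each of the 6 alternatives of scaling, filter, test and count column, where the share of all genes tested that was called was 35.4% with no filter, 78.6% with at least 50 counts, and between 63.7% (unstranded counts) and 70.6% (total counts) otherwise. The summed level of 57474 CPM became 93256 CPM with let-7 genes out of the denominator, 20186 CPM per all reads, and 0 with opposite-strand counts. Leaving out a replicate gave 52843 to 62105 CPM. Unstranded counts were 0 for Mirlet7e, which Gm25927 overlaps on the other strand. With them the mean log2 ratios to Mirlet7e turned from -2.05 to 14.7 for Mir99b and from -1.29 to 15.5 for Mir125a, values set by the pseudocount. Without replicate 1 or 2, the log2 ratio of Mir99b over Mir125a was -2.03 or 0.53 (mean -0.75), and that of Mir125b-2 over Mirlet7c-1 was -0.17 or 0.27 (mean 0.05). With total counts, the log2 difference of Mir125b-1 turned from -0.23 to 0.091. No paired analysis was possible because there was 1 group. Pseudocounts of 0.1 and 10 changed no direction. Depth limits none of the 6 levels, while reads that map to several places limit both Mir125b genes. Such reads, 51.5% of all reads in replicate 1 and 46.7% in replicate 2, are also outside the denominator of every CPM. All levels and ranks are therefore of counted reads and not of the tissue.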
